A study of Mus musculus with 15 samples.

Results

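Prostanoids and leukotrienes are made from arachidonic acid by a small set of enzymes, and 10 genes of that set were described here in liver macrophages: Ptgs1, Ptgs2, Ptgis, Ptges, Tbxas1, Hpgds, Alox5, Alox5ap, Ltc4s and Alox15. Their probes were found through the RefSeq accessions of the array design, which gave 11 probes for the 10 genes, among 20145 genes named on the arrays. All 10 were among the 13390 genes tested, although Alox15 was well above background on all arrays of the wildtype group only. RNA of sorted macrophages was measured on 15 one-colour Agilent mouse arrays, 5 in each of 3 groups. The group WT_SD (below, wildtype cells) held CD11c-negative macrophages from livers of male wildtype mice on standard diet, whose age no source used here gives. The groups MC4R_WD CD11c-negative and MC4R_WD CD11c-positive (below, NASH CD11c-negative and NASH CD11c-positive cells) came from male mice lacking the melanocortin 4 receptor (MC4R-KO), a brain receptor that restrains feeding, which received a Western diet from 8 weeks of age for 20 weeks and whose livers are labelled NASH, non-alcoholic steatohepatitis. Every group was gated on high F4/80 after collagenase digestion, each RNA was pooled from 7 to 9 mice, and no source used here names the strain. Genotype and diet differ together between the wildtype and the NASH cells and cannot be told apart. Nothing states that the 5 arrays of a group came from separate pools, so the p-values reflect the spread among these arrays, and that spread may be technical.

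Cyclooxygenases, encoded by Ptgs1 and Ptgs2, turn arachidonic acid into prostaglandin H2, and terminal synthases turn that into prostacyclin (Ptgis), prostaglandin E2 (Ptges), thromboxane (Tbxas1) or prostaglandin D2 (Hpgds). The lipoxygenase encoded by Alox5, helped by the membrane protein FLAP (Alox5ap), opens the leukotriene branch, and Ltc4s joins glutathione to make the cysteinyl leukotriene C4. Alox15 encodes the 12/15-lipoxygenase, a separate arm that in mice marks resident peritoneal macrophages. Resident macrophages of the liver are a known source of prostanoids there.

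Ptgis was 24.1-fold lower in NASH CD11c-negative and 33.1-fold lower in NASH CD11c-positive than in wildtype cells, and Ltc4s was 2.81-fold and 4.19-fold lower. Ptgs2 and Hpgds were each more than 2-fold higher in both NASH groups, while Ptgs1 was lower. Between the NASH groups Alox5 was the 1 gene of the 10 that passed at 2-fold or more, 2.43-fold lower in the CD11c-positive than in the CD11c-negative cells. Levels are log2 signal relative to the 75th percentile of the array, differences are between group means of that log2 level with the limma standard error (SE), and n is 5 arrays per group throughout. A gene rose or fell where the Benjamini-Hochberg adjusted p of limma over all 13390 genes was under 0.05.

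The base sequence upstream of 4 genes is shown because the pair of cyclooxygenase genes moved in opposite directions, Hpgds rose with Ptgs2, and Ltc4s fell. The RefSeq table of promoters (GRCm38.p6) listed 7 of the 10 genes, Ptgs1, Ptgs2, Ptges, Tbxas1, Hpgds, Alox5 and Ltc4s, and not Ptgis, Alox5ap or Alox15. Each line gives the 250 bases before the start of the gene, 5′ to 3′ on its own strand, and capitals mark the motifs searched on both strands.
Ptgs1 (chr2:36230176-36230425, plus strand): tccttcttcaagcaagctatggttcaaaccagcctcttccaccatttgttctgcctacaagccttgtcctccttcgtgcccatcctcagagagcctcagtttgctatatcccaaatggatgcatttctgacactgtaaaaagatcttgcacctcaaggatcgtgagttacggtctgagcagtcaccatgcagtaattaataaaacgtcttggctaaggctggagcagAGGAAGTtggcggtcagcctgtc
Ptgs2 (chr1:150099781-150100030, plus strand): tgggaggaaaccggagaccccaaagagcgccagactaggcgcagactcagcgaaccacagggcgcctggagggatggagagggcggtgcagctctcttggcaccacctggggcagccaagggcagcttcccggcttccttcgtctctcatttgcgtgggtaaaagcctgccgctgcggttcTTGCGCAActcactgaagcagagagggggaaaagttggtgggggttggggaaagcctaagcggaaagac
Hpgds (chr6:65144731-65144980, minus strand): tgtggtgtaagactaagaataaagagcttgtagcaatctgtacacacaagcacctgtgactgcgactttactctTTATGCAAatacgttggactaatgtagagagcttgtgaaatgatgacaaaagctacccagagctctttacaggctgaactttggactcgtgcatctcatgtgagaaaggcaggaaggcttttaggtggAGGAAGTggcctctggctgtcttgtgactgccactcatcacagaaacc
Ltc4s (chr11:50238533-50238782, minus strand): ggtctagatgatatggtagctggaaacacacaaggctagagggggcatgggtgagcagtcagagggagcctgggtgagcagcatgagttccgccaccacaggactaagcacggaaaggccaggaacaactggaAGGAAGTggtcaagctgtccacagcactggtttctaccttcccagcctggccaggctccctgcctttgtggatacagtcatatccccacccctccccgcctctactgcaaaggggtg
The motif AGGAAGT, which holds the core bound by ETS factors such as PU.1, was present upstream of Ptgs1 (bases -23 to -17 from the start), Hpgds (-48 to -42) and Ltc4s (-117 to -111), and in 7.69% of the 32851 windows of the table. The C/EBP motif TTGCNNAA was present upstream of Ptgs2 (-69 to -62) and Hpgds (-176 to -169), and in 9.56% of windows. Of the 7 listed genes, Tbxas1 alone held the AP-1 motif TGANTCA (6.75% of windows) and TATAAA (12.4%), and none held the NF-kappaB motif (3.9%). No motif overlapped another one in the windows shown. The motifs were chosen with the sequences in view, and a match is a description of letters, not of a bound site.

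Facts of the whole set of arrays were as follows. Adgre1, which encodes F4/80, was well above background on every array, Cd68 had no named probe, and Itgax, which encodes CD11c, was 1.72 ± 0.0325 higher in NASH CD11c-negative and 3.08 ± 0.0325 higher in NASH CD11c-positive than in wildtype cells. Mc4r had 1 probe, well above background on 0 of 15 arrays, which checks nothing about the genotype in these cells. In all, 76.8% of the genes tested passed between NASH CD11c-negative and wildtype cells, 53.1% between the NASH groups and 77.6% between NASH CD11c-positive and wildtype cells. The median gene was 0.13 higher in NASH CD11c-negative and 0.16 higher in NASH CD11c-positive than in wildtype cells, against 0.00092 and 0.045 after quantile normalization, so small differences depended on the scaling. The share of calls that were higher was 62.9% and 66.2% in those comparisons, against 49% and 54.4% after quantile normalization. The arrays lay on 2 slides, each of which held all 3 groups.

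Counted over the 10 genes, 4 rose, 5 fell and 1 did not pass in NASH CD11c-negative against wildtype cells, where 76.8% of all genes passed (48.3% higher and 28.5% lower), and 2 rose and 3 fell at least 2-fold, where 5.18% and 6.22% of all genes did (11.4% in all). In NASH CD11c-positive against wildtype cells 3 rose, 6 fell and 1 did not pass, where 77.6% of all genes passed (51.4% higher and 26.3% lower), and 2 rose and 4 fell at least 2-fold, where 6.65% and 7.02% of all genes did (13.7% in all). Between the NASH groups 2 were higher in the CD11c-positive cells, 5 were lower and 3 did not pass, where 53.1% of all genes passed (29.9% higher and 23.2% lower), and only Alox5 changed at least 2-fold, a fall, where 1.66% of all genes rose and 1.19% fell that far (2.85% in all). The groups did not overlap for 8, 8 and 6 of the 10 genes in these comparisons in the same order, where 64.1%, 69.3% and 39.5% of all genes did not. The number that passed was within 2 genes of what each background share gives, and the medians of the 10 differences were -0.055, -0.50 and -0.11, beside 0.13, 0.16 and 0.015 over all genes. The falls against wildtype cells include Alox15, which passed the filter on dim probes through the wildtype group alone; without it 4 and 5 genes fell, 2 and 3 of them at least 2-fold. After quantile normalization the counts were 3 rising and 7 falling, 2 and 8, and 2 and 4.

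**Figure D1:**
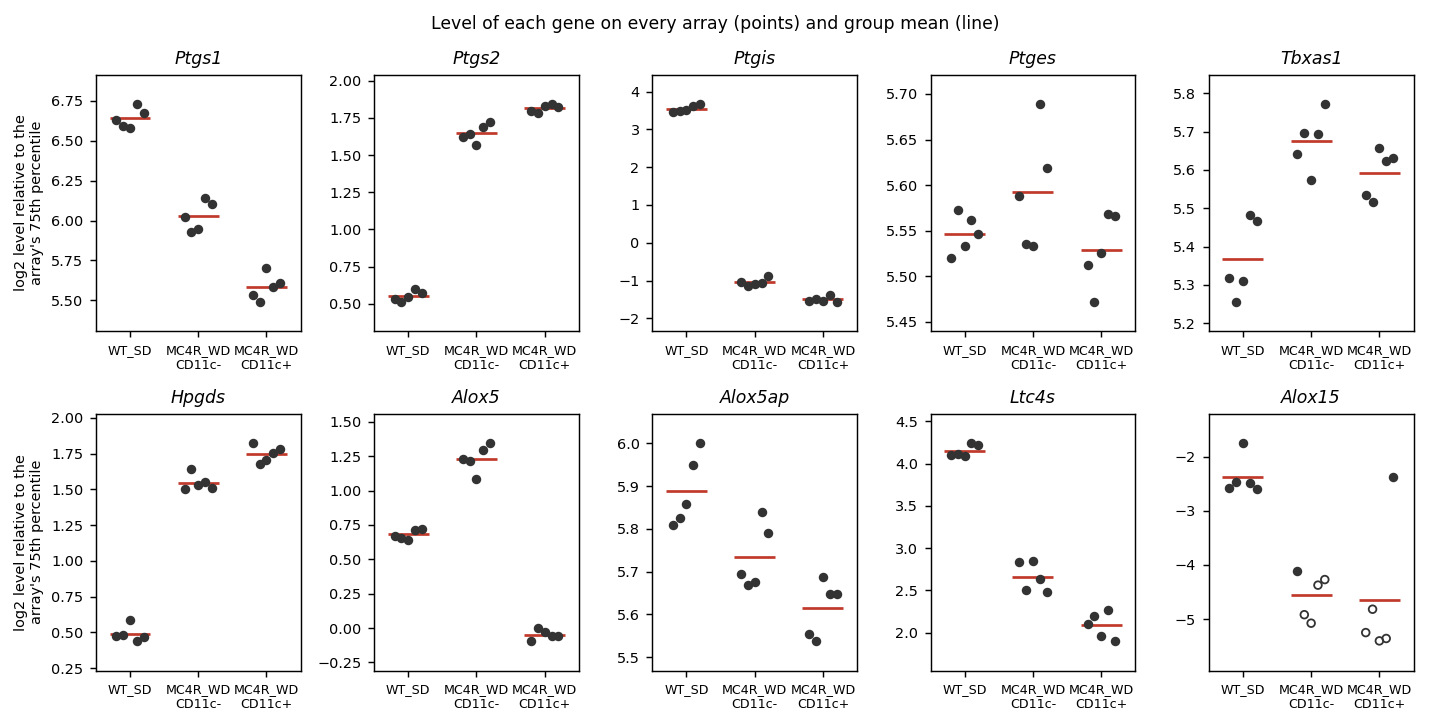
Log2 level of each of the 10 genes relative to the array's 75th percentile (vertical axes, each panel with its own scale) on the 5 arrays of each group; filled points are well above background, open points are not, and the line is the group mean. Ptgis fell from a mean of 3.55 in wildtype cells to -1.05 and -1.50, Alox5 was lowest in NASH CD11c-positive cells, and 1 array of that group stood apart for Alox15.

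The cyclooxygenase genes moved apart. Ptgs1, the constitutive form, stood at 6.63, 6.59, 6.58, 6.73 and 6.68 on the wildtype arrays (replicates 1 to 5). It stood at 6.02, 5.93, 5.94, 6.14 and 6.11 in NASH CD11c-negative and at 5.53, 5.49, 5.70, 5.58 and 5.61 in NASH CD11c-positive cells. Every wildtype array was above every NASH CD11c-negative array, and those were all above the CD11c-positive ones. Ptgs1 fell by 0.61 (SE 0.050, adjusted p = 3.86e-08) and by 1.06 (SE 0.050, adjusted p = 6.65e-11) against wildtype cells, and was 0.44 lower in the CD11c-positive than in the CD11c-negative NASH cells (SE 0.050, adjusted p = 4.10e-06). The falls against wildtype cells grew to -1.07 and -1.46 after quantile normalization. The differences from wildtype cells were -0.64 and -1.09 on slide 1 alone and -0.58 and -1.07 on slide 2 alone.

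Platelets are rich in the enzyme encoded by Ptgs1, so the platelet and megakaryocyte list is set beside it. Of its 6 genes 3 were measured, of which 2 rose and 0 fell in NASH CD11c-negative cells. The defining genes Itga2b and Gp9 did not pass the filter on dim probes, whereas Pf4 rose by 1.32 and 0.72. In NASH CD11c-positive against wildtype cells 1 rose and 1 fell. Their summed signal, in units of the array's 75th percentile, was 38.8 to 42.0 in wildtype, 95.5 to 105 in NASH CD11c-negative and 65.3 to 68.8 in NASH CD11c-positive cells. Pf4 made up over 99% of that sum, so it describes that gene more than the list, whose part was not tested. The Kupffer cell list, all 7 genes of which fell in both NASH groups, summed to 2415 to 2657, 1421 to 1562 and 1107 to 1208 in the same order. Its part was not tested either. Within these bulk samples fewer cells of a type and less RNA per cell cannot be told apart, which holds for every gene below.

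Ptgs2, the inducible form, went the other way. Its probe was printed 10 times on each array, and the standard deviation (SD) between the 10 spots was 0.048 to 0.11 on an array. The means of those spots were 0.53, 0.51, 0.55, 0.60 and 0.57 on the wildtype arrays, 1.62, 1.64, 1.57, 1.69 and 1.72 in NASH CD11c-negative and 1.79, 1.78, 1.83, 1.84 and 1.82 in NASH CD11c-positive cells. All NASH arrays lay above all wildtype arrays, and the CD11c-positive arrays lay just above the CD11c-negative ones. Ptgs2 rose by 1.10 ± 0.030 (2.14-fold, adjusted p = 1.65e-13) and by 1.26 ± 0.030 (2.39-fold, adjusted p = 2.45e-14) against wildtype cells. The step between the NASH groups was 0.16 ± 0.030 (1.12-fold, adjusted p = 0.000320), larger than the SD between arrays of a group and than that between spots of an array. The rises in NASH CD11c-negative and CD11c-positive cells were 1.08 and 1.26 within slide 1 and 1.12 and 1.24 within slide 2.

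**Figure D2:**
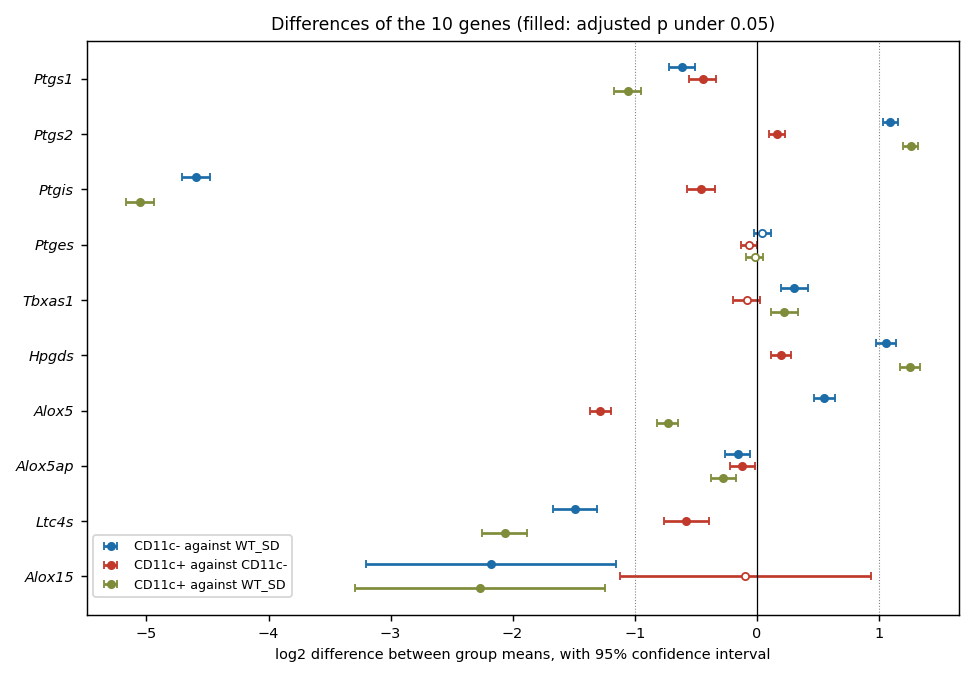
Log2 difference between group means for the 10 genes (horizontal axis) with the 95% confidence interval of limma, in the 3 comparisons by colour; filled points passed at an adjusted p under 0.05, and dotted lines mark a 2-fold change. The points of Ptgis lie at -4.59 and -5.05 against wildtype cells, far from those of the other genes, and the intervals of Alox15 are the widest.

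Ptgis, which encodes prostacyclin synthase and is best known from endothelium and smooth muscle, had the widest range of the 10 genes. It stood at 3.45, 3.48, 3.52, 3.62 and 3.67 on the wildtype arrays. In NASH CD11c-negative cells it stood at -1.05, -1.13, -1.08, -1.07 and -0.89, and in NASH CD11c-positive cells at -1.54, -1.49, -1.54, -1.39 and -1.56. The probe was well above background on all 15 arrays, and no group overlapped another. The CD11c-negative cells of NASH livers differed by -4.59 (SE 0.053, adjusted p = 1.66e-17) and the CD11c-positive ones by -5.05 (SE 0.053, adjusted p = 4.28e-18) from wildtype cells, and 3 genes of 13390 fell further in each of these comparisons. Both share the wildtype arrays. Within slide 1 the differences were -4.57 and -4.996, within slide 2 -4.62 and -5.14, and normexp background correction gave -4.07 and -4.44. The NASH CD11c-positive cells were lower than the CD11c-negative ones by a further 0.46 (SE 0.053, adjusted p = 5.48e-06).

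The genes whose levels followed Ptgis most closely over the 15 arrays were Tnk2 (Pearson r = 0.999), Gbp4 and Prkcq, and 132 genes had an r above 0.99. These arrays fall into 3 groups, which the correlation mostly restates. Markers of liver sinusoidal endothelial cells also fell. All 11 of the list were measured, 10 fell and 1 rose in NASH CD11c-negative cells, and 10 fell and 1 did not pass in NASH CD11c-positive cells, both against wildtype cells. Of its defining genes, Stab2 differed from wildtype cells by -0.90 and -1.04, Clec4g by -0.74 and -1.81 and Oit3 by -0.86 and -1.45. The summed signal of the list was 401 to 441 in wildtype, 243 to 259 in NASH CD11c-negative and 158 to 164 in NASH CD11c-positive cells. The largest fall of the list in NASH CD11c-negative cells was that of Dnase1l3 (-1.75; named after its value was seen), beside -4.59 for Ptgis. The stellate cell and fibroblast list, with 8 of 10 genes measured, summed to 7.18 to 7.86, 10.02 to 10.74 and 7.24 to 7.63 in the same order, with Reln not well above background on any array, 5 rising and 2 falling in NASH CD11c-negative and 3 rising and 4 falling in NASH CD11c-positive cells. Without Dcn, its brightest gene, the sums were 2.63 to 3.73, 4.21 to 4.62 and 4.11 to 4.28. All 7 Kupffer cell markers fell as well, in both NASH groups. Among them Cd163, named after its value was seen, differed from wildtype cells by -4.88 and -5.69, more than Ptgis did. The other genes of that list fell less than Ptgis did. In NASH CD11c-positive cells Cd163 was well above background on 4 of 5 arrays. The part of any of these cells in the fall of Ptgis was not tested.

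Ptges, the inducible prostaglandin E synthase, did not pass in any comparison, with differences of 0.046 (95% confidence interval -0.022 to 0.11), -0.018 (-0.086 to 0.050) and -0.064 (-0.13 to 0.0039) for the NASH CD11c-negative and then the CD11c-positive cells against wildtype ones, and for the CD11c-positive against the CD11c-negative ones. Its levels overlapped between the groups, from 5.52 to 5.57 in wildtype, 5.53 to 5.69 in NASH CD11c-negative and 5.47 to 5.57 in NASH CD11c-positive cells. A second, dimmer probe of the same transcript disagreed, at -0.81 ± 0.14 (adjusted p over 28175 probes = 0.000129) in NASH CD11c-negative against wildtype cells, and quantile normalization gave -0.36 for the brighter probe. The direction of Ptges is therefore unsettled.

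Tbxas1, thromboxane synthase, ranged from 5.26 to 5.48 in wildtype, 5.57 to 5.77 in NASH CD11c-negative and 5.52 to 5.66 in NASH CD11c-positive cells, with both NASH groups above the wildtype one. It rose by 0.31 ± 0.051 (adjusted p = 5.96e-05) and 0.23 ± 0.051 (adjusted p = 0.000905), but after quantile normalization it was lower by the same test, at -0.095 and -0.13. The NASH groups differed by -0.083 (95% confidence interval -0.19 to 0.026), which did not pass. With slide as a block in the fit this step of Tbxas1 passed, at -0.11 (adjusted p = 0.00349), as did that of Ptges, at -0.076 (adjusted p = 0.0126).

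Hpgds, the prostaglandin D synthase of haematopoietic cells, rose beside Ptgs2. It stood at 0.48, 0.48, 0.59, 0.44 and 0.47 in wildtype cells. The NASH CD11c-negative arrays stood at 1.505, 1.64, 1.53, 1.55 and 1.51 and the CD11c-positive ones at 1.82, 1.68, 1.703, 1.75 and 1.78, with no overlap between any groups. The rises were 1.06 ± 0.038 (2.08-fold, adjusted p = 3.32e-12) and 1.25 ± 0.038 (2.39-fold, adjusted p = 3.69e-13). Between the NASH groups the CD11c-positive cells were higher by 0.20 ± 0.038 (adjusted p = 0.000488), with 0.19 within slide 1, where the adjusted p was 0.0545, and 0.21 within slide 2. Against wildtype cells the rises were 1.04 and 1.23 within slide 1 and 1.08 and 1.29 within slide 2. Ptgds, the other prostaglandin D synthase and named after its values were seen, was well above background on 4, 2 and 3 of the 5 arrays of the groups and did not pass (-0.11 ± 0.18 and -0.16 ± 0.18 against wildtype cells).

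**Figure D3:**
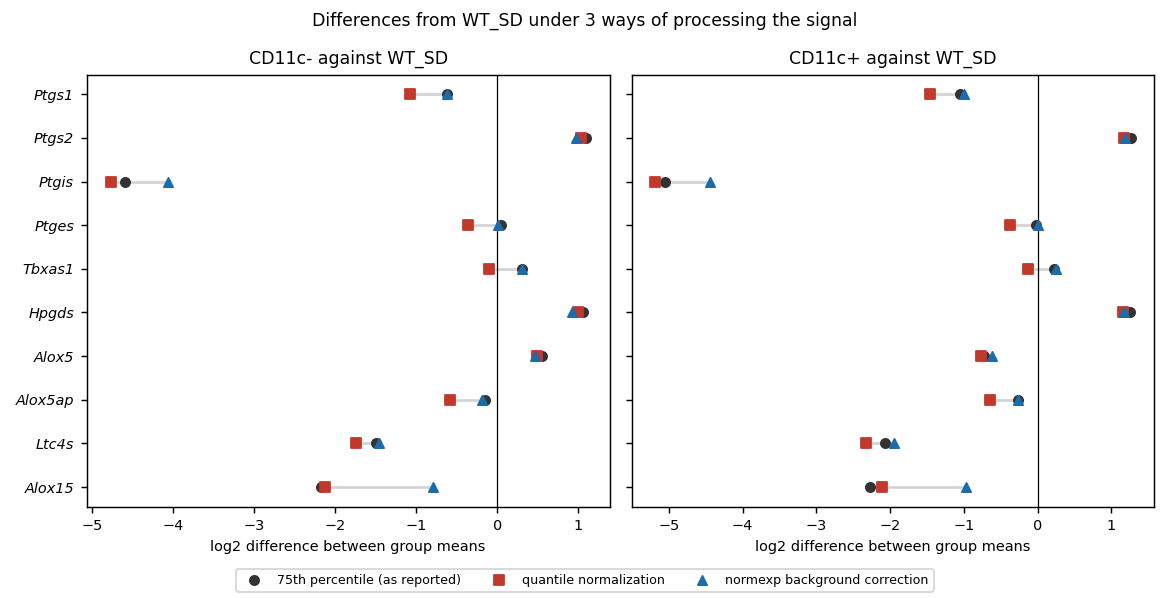
Log2 difference from wildtype cells (horizontal axis) of the 10 genes in NASH CD11c-negative (left) and NASH CD11c-positive cells (right), with the scaling reported here (circles), quantile normalization (squares) and normexp background correction (triangles). Tbxas1 changed sign under quantile normalization (0.31 against -0.095, and 0.23 against -0.13), whereas Ptgs2, Hpgds, Ptgis and Ltc4s kept theirs.

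In the leukotriene branch, Alox5 changed in opposite directions in the NASH groups. Its levels were 0.67, 0.65, 0.64, 0.72 and 0.72 on the wildtype arrays and 1.23, 1.21, 1.09, 1.29 and 1.34 in NASH CD11c-negative cells. In NASH CD11c-positive cells they were -0.094, 0.0018, -0.032, -0.056 and -0.062. The CD11c-negative arrays were all above and the CD11c-positive arrays all below the wildtype arrays. Alox5 was thus 0.55 ± 0.041 higher in the CD11c-negative cells of NASH livers (1.47-fold, adjusted p = 1.19e-08) and lower by 0.73 in the CD11c-positive ones (-0.73, SE 0.041, 1.66-fold, adjusted p = 4.32e-10) than in wildtype cells. The direct comparison of the NASH groups gave -1.28 (SE 0.041, 2.43-fold, adjusted p = 4.22e-12), with -1.22 within slide 1 and -1.37 within slide 2, and 91 genes of 13390 were lower by more.

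Neutrophils carry Alox5 abundantly, and their marker list moved the same way. Of 10 genes 9 were measured, of which 8 rose and 1 fell in NASH CD11c-negative against wildtype cells, and 8 of 9 were lower in NASH CD11c-positive than in CD11c-negative cells. The summed signal of the list was 407 to 427 in wildtype, 1542 to 1688 in NASH CD11c-negative and 636 to 669 in NASH CD11c-positive cells. S100a8 was 2.64 higher and then 1.74 lower (-1.74), S100a9 1.81 higher and 1.13 lower (-1.13), and Ly6g had no named probe. In NASH CD11c-positive cells the sum of the list stood above its wildtype level, while Alox5 stood below its own. Of the 9 measured genes 7 were higher there than in wildtype cells and 2 were lower, as Alox5 was. The sums of other lists were also highest in NASH CD11c-negative cells. Among them were the platelet and stellate cell lists given above. The mast cell and basophil list below was highest there by its mean, with overlap with wildtype arrays. The monocyte list summed to 75.9 to 81.9, 167 to 182 and 97.9 to 104 in wildtype, NASH CD11c-negative and NASH CD11c-positive cells. Chil3, its brightest gene, made up 12.7%, 57% and 36.9% of that sum. Without it the sums were 66.2 to 71.8, 72.0 to 79.6 and 62.6 to 64.7, lowest in NASH CD11c-positive cells. The macrophage list summed to 925 to 1019, 1157 to 1246 and 909 to 994 in the same order. Without Csf1r, its brightest gene, the sums were 344 to 369, 525 to 573 and 432 to 463. The part of neutrophils or of these other cells in the change of Alox5 was not tested.

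Alox5ap, the helper protein of the same step, changed little. It ranged from 5.81 to 5.9996 in wildtype, 5.67 to 5.84 in NASH CD11c-negative and 5.54 to 5.69 in NASH CD11c-positive cells, with overlap between neighbouring groups. It fell by 0.16 (SE 0.047, adjusted p = 0.00823) and 0.27 (SE 0.047, adjusted p = 9.74e-05) against wildtype cells, and these falls were -0.59 and -0.65 after quantile normalization. The difference between the NASH groups (-0.12, SE 0.047, adjusted p = 0.0491) was at the threshold and passed under 12 of 29 alternatives, slide as a block among them (-0.14), with adjusted p of up to 0.122.

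Ltc4s, leukotriene C4 synthase, fell in steps. Its levels were 4.10, 4.12, 4.09, 4.24 and 4.22 in wildtype cells. They were 2.84, 2.51, 2.85, 2.64 and 2.48 in NASH CD11c-negative and 2.11, 2.19, 1.96, 2.27 and 1.90 in NASH CD11c-positive cells, again with no overlap between groups. Ltc4s differed from wildtype cells by -1.49 (SE 0.085, adjusted p = 6.17e-10) and -2.07 (SE 0.085, adjusted p = 1.20e-11). The NASH CD11c-positive cells were lower than the CD11c-negative ones by 0.58 (-0.58, SE 0.085, 1.49-fold, adjusted p = 5.01e-05). The differences from wildtype cells were -1.37 and -1.95 within slide 1 and -1.67 and -2.19 within slide 2.

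Mast cells and basophils, which are known for Ltc4s and Hpgds, were followed with a list of 11 genes, 7 of them measured. Against wildtype cells 1 rose and 4 fell in NASH CD11c-negative cells, and 7 of 7 fell in NASH CD11c-positive cells. The summed signal was 9.20 to 10.04 in wildtype, 9.74 to 10.8 in NASH CD11c-negative and 5.59 to 6.14 in NASH CD11c-positive cells. Cpa3 was well above background in wildtype cells alone, Ms4a2 on no array and Fcer1a on no NASH CD11c-positive array. Cpa3 passed the filter on dim probes through the wildtype group alone, so that its falls counted here were built into its selection. Prss34 did not reach that filter in NASH CD11c-positive cells, so the same holds for its fall there. Hdc, which other myeloid cells also express, made up 60.6%, 85.2% and 70.4% of the sum in these groups. Without it the sum was 3.66 to 3.85, 1.47 to 1.55 and 1.61 to 1.87, lower in both NASH groups, as Ltc4s was, while Hpgds was higher there. The sums of the Kupffer cell and endothelial lists fell in steps, as Ltc4s did. So did those of the hepatocyte list (80.2 to 88.2, 34.9 to 38.7 and 25.7 to 28.0). The B cell and plasma cell list (62.1 to 70.3, 38.7 to 46.1 and 22.7 to 25.5) and the erythroid list (8.17 to 8.78, 4.07 to 4.51 and 1.14 to 1.31) fell likewise. The part of any of these cells was not tested. Over the 15 arrays the genes most like Ltc4s were Slit1 (r = 0.994), Nid2 and Mup17 (both 0.991).

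**Figure D4:**
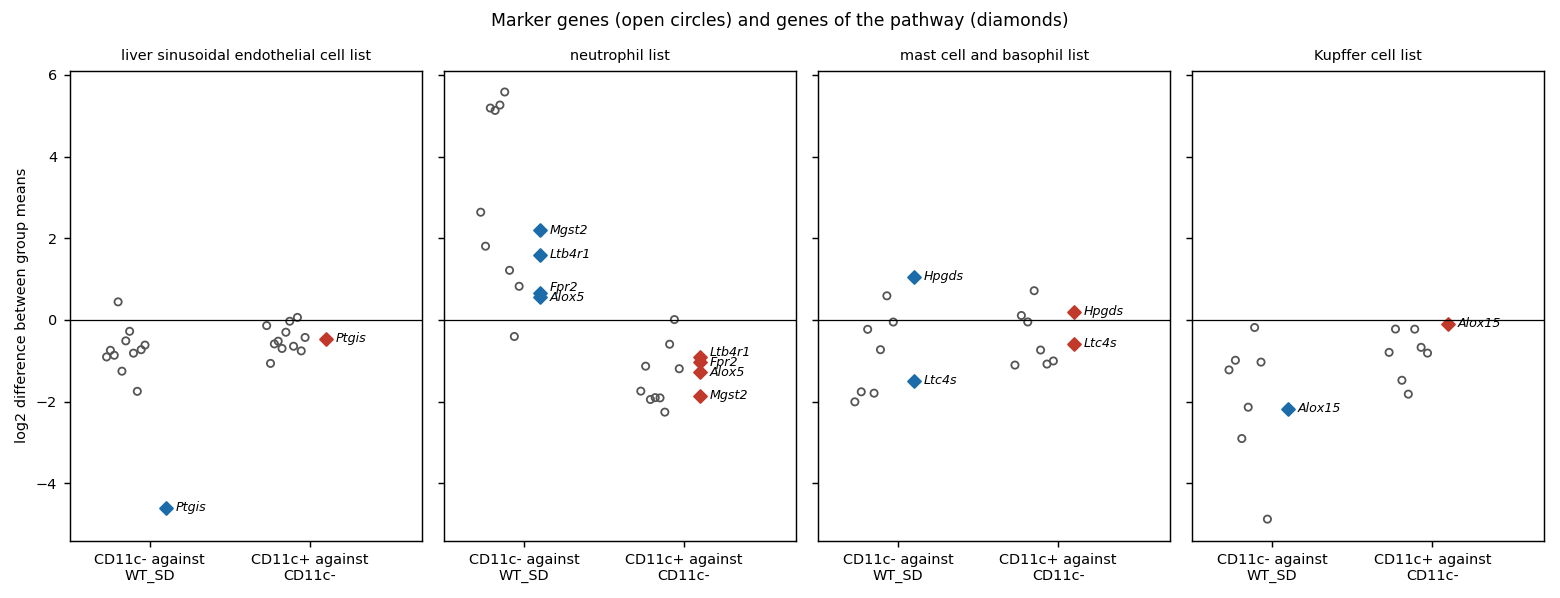
Log2 difference between group means (vertical axis) of the measured genes of 4 marker lists (open circles) and of the pathway genes set beside them (diamonds), for NASH CD11c-negative against wildtype cells and for NASH CD11c-positive against CD11c-negative cells. Alox5, Mgst2, Ltb4r1 and Fpr2 changed in the same direction as 8 of 9 neutrophil genes in both comparisons. The fall of Ptgis (-4.59) was beyond that of every endothelial gene and of every Kupffer cell gene but Cd163 (-4.88, named after its value was seen).

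Alox15 was at the edge of detection. Its levels were -2.58, -2.47, -1.75, -2.48 and -2.60 on the wildtype arrays, all well above background. In NASH CD11c-negative cells they were -4.11, -4.92, -5.08, -4.37 and -4.27, and in CD11c-positive cells -5.25, -4.82, -5.40, -5.36 and -2.38. Only 1 array of each NASH group was well above background, replicate 1 and replicate 5, and the latter reached the wildtype range. It passed the filter on dim probes through the wildtype group alone, where it was highest, so that a fall was built into its selection. The fitted differences from wildtype cells were -2.17 ± 0.48 (adjusted p = 0.000790) and -2.27 ± 0.48 (adjusted p = 0.000544), values that rest on NASH signals mostly not above background. The NASH signal was also replaced by each array's dimmest spot still well above background, unless the gene's own signal was higher. On that footing Alox15 was 2.70-fold lower in NASH CD11c-negative and 2.89-fold lower in NASH CD11c-positive cells. These folds hold for this scaling only and are no minimum over the alternatives. With normexp background correction the fitted differences shrank to -0.79 and -0.97. On slide 2 alone neither passed, at -1.78 and -1.84 (adjusted p = 0.171 and 0.127 in limma). The NASH groups differed by -0.092 (95% confidence interval -1.12 to 0.93), and without replicate 5 of the CD11c-positive group by -0.66 (adjusted p = 0.0267).

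Markers of cells known for Alox15 were followed too. In the peritoneal macrophage list, with 5 of 6 genes measured and sums of 43.7 to 48.4, 36.7 to 43.3 and 37.6 to 41.5 in wildtype, NASH CD11c-negative and NASH CD11c-positive cells, the defining gene Gata6 was not well above background on any array. Against wildtype cells 2 of these rose and 2 fell in each NASH group. The falls include Serpinb2, which passed the filter on dim probes through the wildtype group alone, so that they were built into its selection. Without Icam2, the brightest, the sums were 10.5 to 11.8, 10.6 to 12.4 and 17.8 to 19.8, highest in NASH CD11c-positive cells. The eosinophil list, with 5 of 6 measured, summed to 39.1 to 45.1, 58.4 to 68.2 and 92.8 to 104, and its defining gene Epx was not well above background on any array. Ear1 made up at least 91% of that sum in every group. Against wildtype cells 3 genes rose and 1 fell in NASH CD11c-negative cells, and 3 rose and 2 fell in NASH CD11c-positive cells, where Prg2, a defining gene, differed by -1.48. All 7 Kupffer cell markers fell in both NASH groups, with sums of 2415 to 2657, 1421 to 1562 and 1107 to 1208. Clec4f differed from wildtype cells by -1.22 and -2.02, Vsig4 by -0.99 and -1.21 and Timd4 by -2.90 and -4.38. Their part in the fall of Alox15 was not tested. The genes most like Alox15 over the 15 arrays were Cpne8 (r = 0.958), Atrnl1 (0.949) and the lipoxygenase gene Aloxe3 (0.935).

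Around the 10 genes, 76 further genes of the pathway were listed by step, of which 54 were measured. Against wildtype cells 30 rose, 17 fell and 7 did not pass in NASH CD11c-negative cells, and 28, 15 and 11 in NASH CD11c-positive cells, so that 87% and 79.6% passed, beside 76.8% and 77.6% of all genes. Between the NASH groups 12 were higher in the CD11c-positive cells, 18 lower and 24 did not pass, where 53.1% of all genes passed. Over these genes the median differences were 0.26, 0.15 and -0.052 in the same order.

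The supply of arachidonic acid showed changes in both directions, with 8 of 15 measured genes rising and 5 falling in NASH CD11c-negative cells. Of all genes 48.3% rose and 28.5% fell there. Pla2g2d, a secreted phospholipase A2 of lymphoid tissue macrophages, ranged from 0.37 to 0.54 in wildtype, from -2.79 to -2.53 in NASH CD11c-negative and from -1.92 to -1.60 in NASH CD11c-positive cells. It differed from wildtype cells by -3.11 ± 0.062 (adjusted p = 5.26e-15) and -2.24 ± 0.062 (adjusted p = 1.49e-13), and was 0.87 higher in the CD11c-positive than in the CD11c-negative NASH cells. All 8 genes of the dendritic cell list were measured, 7 of which fell in NASH CD11c-negative against wildtype cells, and 7 were higher in NASH CD11c-positive than in CD11c-negative cells. Their summed signal was 79.3 to 88.4, 44.9 to 50.6 and 102 to 112 in wildtype, NASH CD11c-negative and NASH CD11c-positive cells, with Xcr1 not well above background in the second of these, and their part was not tested. Lpcat1, which returns fatty acids to lysophospholipids, rose by 1.09 and 1.49. Mgll, the lipase that frees arachidonic acid from 2-arachidonoylglycerol, fell (-0.73 and -1.07). Abhd6, which acts on the same lipid, rose by 0.38 in NASH CD11c-negative cells and stood at 0.0024 in NASH CD11c-positive cells, which did not pass. With its dimmest kept probe the rise was 0.061 and did not pass either (adjusted p = 0.638).

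Of the 6 other prostanoid synthases, 5 rose and 0 fell in each NASH group against wildtype cells. Over all genes 48.3% rose and 28.5% fell in NASH CD11c-negative cells, and 51.4% and 26.3% in NASH CD11c-positive cells. Ptges2, a constitutive prostaglandin E synthase, rose by 0.62 ± 0.038 and 0.49 ± 0.038. Akr1b3, a prostaglandin F synthase, rose by 0.63 and 0.50, and Prxl2b, another one, by 0.62 and 0.69. After quantile normalization the rises were 0.53 and 0.38 for Ptges2, 0.34 and 0.42 for Prxl2b and 0.22 and 0.16 for Akr1b3.

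In the rest of the leukotriene and lipoxygenase list, 7 of 11 measured genes rose and 3 fell in NASH CD11c-negative cells. Of all genes 48.3% rose and 28.5% fell there. Mgst2, a microsomal glutathione transferase that can also make leukotriene C4, was 2.20 ± 0.042 higher in NASH CD11c-negative than in wildtype cells (adjusted p = 3.53e-15) and 1.85 lower in NASH CD11c-positive than in CD11c-negative cells (-1.85, adjusted p = 1.27e-13), which left it 0.35 above wildtype cells there. Ltc4s and Mgst2 thus moved in opposite directions in NASH CD11c-negative cells. The neutrophil list moved with Mgst2, as did the sums of the monocyte and macrophage lists, among others. Dpep2, a membrane dipeptidase that converts leukotriene D4 to E4, rose by 2.27 ± 0.059 and 2.94 ± 0.059. Dpep3, of the same family, was well above background on 0 of 5 wildtype arrays and on all NASH arrays. It passed the filter on dim probes through the NASH groups alone, so that a rise was built into its selection. With the dimmest spots in place of its wildtype signal, as for Alox15, it was 2.40-fold and 3.47-fold higher with this scaling. Among the alternatives its log2 differences went down to 0.78 and 0.86. Ggt5, which converts leukotriene C4 to D4, fell (-0.67 and -1.004). Alox12, the platelet type lipoxygenase, fell too (-2.04 and -2.79), as did the epidermal gene Aloxe3 (-1.82 and -1.23), with 3 and 4 arrays of the NASH groups well above background. On slide 2 alone neither fall of Aloxe3 passed (-1.76, adjusted p = 0.0788, and -1.02, adjusted p = 0.220).

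The genes that carry prostaglandins into cells and degrade them also moved. Slco2a1, the prostaglandin transporter, differed from wildtype cells by -2.29 ± 0.053 (adjusted p = 2.63e-14) and -2.61 ± 0.053 (adjusted p = 4.38e-15). Hpgd, which oxidises the prostaglandin 15-hydroxyl group and so inactivates it, fell (-0.71 and -1.53), and was 0.82 lower (-0.82) in the CD11c-positive than in the CD11c-negative NASH cells. Ptgr1, a reductase that inactivates leukotriene B4 and prostaglandin metabolites, rose by 1.98 and 2.25, and Cyp4f18, which hydroxylates leukotriene B4 in mouse neutrophils, by 1.58 and 1.86. Over the list, 4 rose and 7 fell in NASH CD11c-negative cells and 5 rose and 4 fell in NASH CD11c-positive cells, of 11 measured. Over all genes 48.3% rose and 28.5% fell in the former, and 51.4% and 26.3% in the latter.

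**Figure D5:**
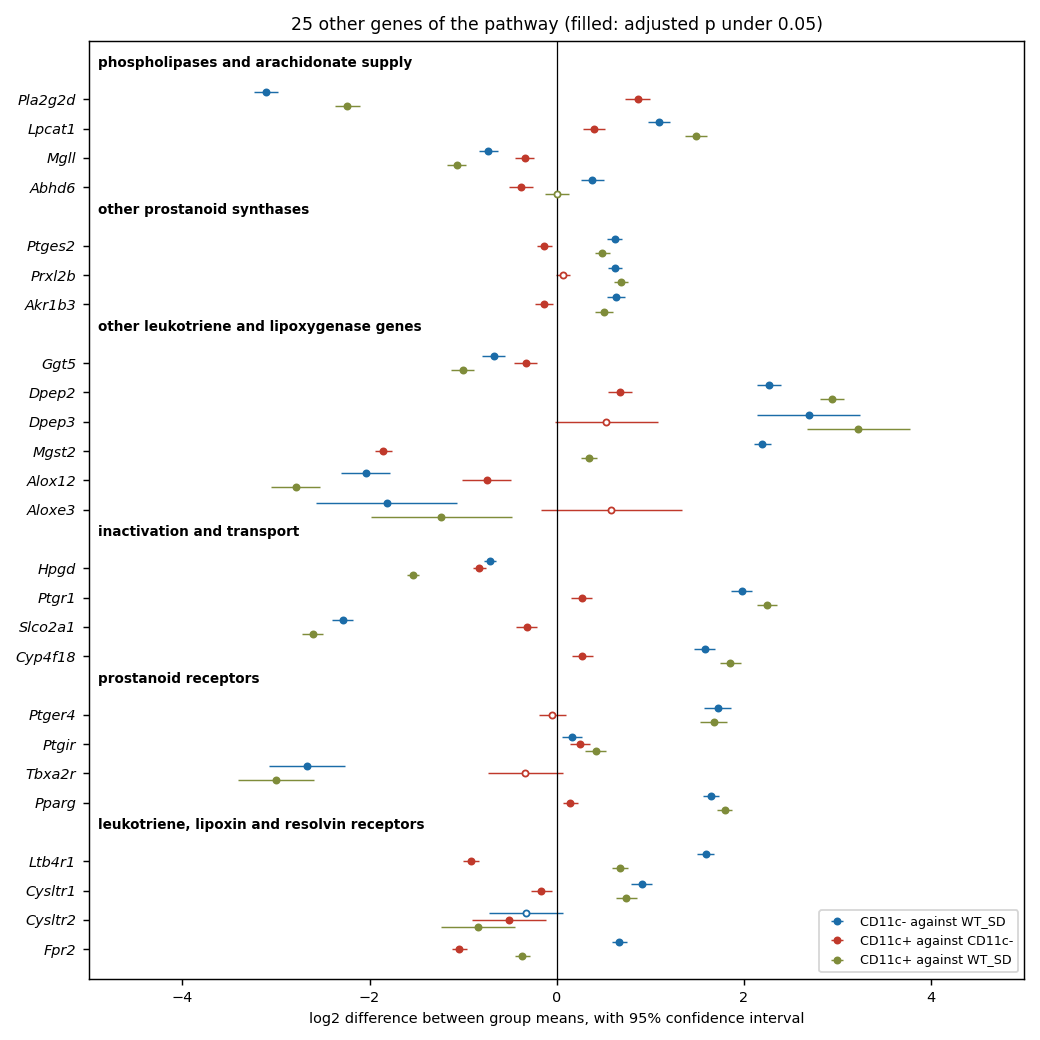
Log2 difference between group means (horizontal axis) with the 95% confidence interval of limma for 25 other genes of the pathway, grouped by step, in the 3 comparisons by colour; filled points passed at an adjusted p under 0.05. Pla2g2d, Slco2a1, Alox12 and Tbxa2r lie far to the left against wildtype cells (-3.11, -2.29, -2.04 and -2.67 in NASH CD11c-negative cells), and Dpep2, Dpep3, Ptgr1 and Mgst2 to the right.

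Of 10 receptor genes for prostanoids, 5 were measured, and Ptger1, Ptger3, Ptgdr, Ptgdr2 and Ptgfr did not pass the filter on dim probes. Ptger4, a prostaglandin E2 receptor coupled to cyclic AMP, rose by 1.72 ± 0.067 (adjusted p = 9.36e-12) and 1.68 ± 0.067 (adjusted p = 9.44e-12). Tbxa2r, the thromboxane receptor, differed by -2.67 ± 0.19 and -3.00 ± 0.19. Ptgir, the receptor of prostacyclin, rose by 0.17 and 0.42, but on slide 1 alone the rise in NASH CD11c-negative cells was 0.093 and did not pass (adjusted p = 0.252). Pparg, a nuclear receptor that prostaglandin J2 can bind, rose by 1.65 and 1.80.

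Of 8 receptor genes for leukotrienes, lipoxins and resolvins, 6 were measured. Ltb4r1, the high affinity leukotriene B4 receptor, was 1.59 ± 0.041 higher in NASH CD11c-negative than in wildtype cells and 0.91 lower (-0.91) in NASH CD11c-positive than in CD11c-negative cells. Fpr2, which binds formyl peptides and lipoxin A4, was 0.67 higher and then 1.04 lower (-1.04), which put the CD11c-positive cells below wildtype ones by 0.37 (-0.37). Both were highest in NASH CD11c-negative cells, as were Alox5 and, among others, the sums of the neutrophil, monocyte and macrophage lists. The part of these cells was not tested. In NASH CD11c-positive cells Ltb4r1 stood above its wildtype level, as the sum of the neutrophil list did, and Fpr2 below it, as Alox5 did. Cysltr1, a receptor of cysteinyl leukotrienes, rose by 0.91 and 0.74. Cysltr2, the other one, did not pass in NASH CD11c-negative cells (-0.33 ± 0.18), although it did without replicate 2 of that group (-0.53, adjusted p = 0.000944) and on slide 2 alone (-0.52, adjusted p = 0.00201), and it fell by 0.84 in NASH CD11c-positive cells (adjusted p = 0.000779).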

How the data were processed

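RNA of sorted liver macrophages was measured on 15 one-colour Agilent arrays, 5 per group. The scanner files hold spot intensities from Agilent Feature Extraction 10.7.3.1, per the submitters' processing notes, with the processed signal already background-subtracted, per the file headers. The deposited value table holds log2 values that matched the processed signals after scaling each array to its 75th percentile and taking off each probe's median over the wildtype group, to within 0.00146 (median absolute difference); it served as an alternative. Its column medians ran from -0.204 to 0.408.

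From the scanner files, control spots (3671 of 62976) and spots marked as outliers (113 to 190 per array) were left out, spots of a probe were averaged, and log2 of the processed signal minus the array's 75th percentile (359 to 562 intensity units) was taken. No spot was saturated. Between 45.8% and 58.0% of the spots other than controls were well above background on an array, and the number of arrays limits the precision. Probes were named through RefSeq accessions (26582 of 55681 named). A probe was kept where it was well above background on at least 4 of 5 arrays of a group (28175 kept), the brightest kept probe stood for a gene, and 13390 genes were tested with lmFit and eBayes of limma 3.58.1 in R 4.3.3, all groups in 1 fit, with Benjamini-Hochberg adjustment. The procedure was tested on simulated data.

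The 10 genes, the pathway and marker lists and the alternatives were chosen with earlier results of these data known. All 10 genes were named; of the other pathway genes, those passing at 2-fold or more in any comparison and the largest rise and fall of each list and comparison; of a marker list, its first 3 genes; and for the 3 widest-ranging genes, the 3 most correlated ones. Sums of marker lists were also taken without the brightest gene, an alternative chosen after seeing the data; the order of the groups held for the Kupffer cell, endothelial, neutrophil, dendritic cell and eosinophil lists. Replicate numbers were not shown to pair arrays. Alternatives covered background correction, normalization, filter, probe choice, slide, replicate block, variance prior, samples in the fit, the deposited table and leaving out each array.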

Additional observations from a re-analysis of the deposited data

Results flagged for a closer look

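In 108 sets of 5 arrays, 5 had 1 array set apart from the other 4, where chance alone gives about 1 in 20. For Alox15, replicate 5 of the CD11c-positive group stood at -2.38 with the nearest array at -4.82, and wildtype replicate 3 stood at -1.75 with the nearest at -2.47. Aloxe3 was also high on that CD11c-positive array, at -0.85, with the nearest at -2.93. Hpgds stood at 0.59 on wildtype replicate 3, with the nearest array at 0.48, still below every NASH array. Dpep3 stood at -2.74 on replicate 4 of the CD11c-positive group, with the nearest at -2.27. Over all genes, the share for which an array was set apart ran from 0.366% to 2.05%, and was 1.4% for replicate 5 of the CD11c-positive group and 1.23% for wildtype replicate 3.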

How the results depend on the processing

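Of 30 differences of the 10 genes, 19 kept their direction and their side of the threshold under every one of the 29 alternatives, and 11 did not under at least 1; of 75 differences of the other named genes, 58 did. Alox15, Dpep3, Aloxe3 and Tbxa2r gave no value where probes had to be well above background on all arrays. Ptges in NASH CD11c-negative against wildtype cells turned to -0.36 with quantile normalization, -0.38 with the mean of its probes and -0.81 with the dimmer probe; between the NASH groups it turned to 0.14 and 0.34 with the latter choices, and in CD11c-positive against wildtype cells to 0.0038 with normexp. Tbxas1 turned to -0.095 and -0.13 against wildtype cells with quantile normalization. Alox15 between the NASH groups turned to 0.0089 with quantile normalization, and leaving out 1 array gave -0.66 to 0.098. Tbxa2r between the NASH groups was 0.00055 on slide 2. Abhd6 in CD11c-positive against wildtype cells turned to -0.020 with normexp, -0.056 with the mean of its probes and -0.11 with the dimmest, and leaving out 1 array gave -0.041 to 0.040. The cause was not tested. The number of genes passing at 2-fold or more was 774 with normexp and 985 with the filter on all arrays, against 1527, in NASH CD11c-negative against wildtype cells. It was 158 and 190, against 381, between the NASH groups, and 1083 with normexp, against 1831, in NASH CD11c-positive against wildtype cells. Dim probes, here Alox15, Aloxe3 and Dpep3, limit the precision.

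With the replicate number as a block, 10736, 7948 and 10776 genes passed in NASH CD11c-negative against wildtype cells, between the NASH groups and in NASH CD11c-positive against wildtype cells, against 10280, 7116 and 10392 without it, and 9, 7 and 9 of the 10 genes passed with it as without it. With slide beside the replicate block 9, 9 and 9 passed, and Alox15 between the NASH groups turned to 0.11. Of 15 pairs of same-numbered arrays 11 deviated together with a correlation above 0.1 (range -0.20 to 0.37). In 8 of these 15 the array of the same number was also the best match. The negative values, -0.20 and -0.17, were those of replicate 3 of the CD11c-positive group, which lay on slide 2. The other arrays numbered 3 lay on slide 1. A shared number thus mostly meant a shared slide, and the pairing is not shown.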

Other observations

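Outside the rule for named genes, and named after their values were seen, a few more enzymes had clear values. Lta4h, which makes leukotriene B4 from the product of Alox5, rose by 0.72 ± 0.041 in NASH CD11c-negative and by 0.59 ± 0.041 in NASH CD11c-positive cells against wildtype cells, so that it stayed above wildtype in the group where Alox5 fell. Pla2g4a, the cytosolic phospholipase A2 that releases arachidonic acid, fell by 0.19 and then by 0.46 (-0.19 ± 0.028 and -0.46 ± 0.028). Ptges3, a cytosolic prostaglandin E synthase and co-chaperone, rose by 0.62 ± 0.034 and 0.56 ± 0.034, close to Ptges2. Cotl1, which binds 5-lipoxygenase, rose by 0.78 ± 0.064 and 0.83 ± 0.064. Pla2g7, the secreted hydrolase of platelet activating factor, rose by 0.75 ± 0.041 and 0.97 ± 0.041, and Ephx1, an epoxide hydrolase, fell (-0.72 ± 0.051 and -0.83 ± 0.051). All of these differences passed at an adjusted p under 0.05 in limma.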
